A study of Homo sapiens with 30 samples.

Results

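The genes described here encode the subunits of integrins and laminins. They were taken as all genes whose only annotated symbol is ITGA with a number or letter code, ITGB with a number, or LAMA, LAMB or LAMC with a number, which leaves out partner proteins such as ITGB1BP1 and ITGB3BP. This gave 35 of 19775 genes, namely 18 integrin alpha subunits, 7 integrin beta subunits and 10 laminin subunits, measured by 95 of 54675 probe sets. A further 5 probe sets that match such a name but carry several symbols were not used.

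RNA came from A375, an established human melanoma cell line, given 650 nM MLN4924 or 0.065% DMSO, the vehicle, for 1, 2, 4, 8 or 24 h. MLN4924 (pevonedistat) inhibits the enzyme that activates the ubiquitin-like protein NEDD8, which cullin-RING ubiquitin ligases need for full activity. All 10 groups were cultures of the same line in medium with serum, and each group had 3 Affymetrix HG-U133 Plus 2.0 arrays, with DMSO arrays at every time. Whether the 3 arrays of a group came from separate cultures is not given, so p-values measure only the spread between arrays, which may be technical.

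Integrins are cell surface receptors made of an alpha and a beta subunit, and the pair sets which ligand is bound: collagens, laminins, or proteins with an arginine-glycine-aspartate (RGD) motif such as fibronectin and vitronectin. Inside the cell the tails bind talin and kindlin, which link the receptor to actin and to kinases such as FAK (PTK2). Laminins are heterotrimers of an alpha, a beta and a gamma chain that assemble into basement membranes together with nidogen and type IV collagen. In melanoma, integrins of the alpha-v group are known for their part in invasive growth.

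The promoters of the members that fell at 24 h and have a window outside the gene in the RefSeq table of GRCh38.p14 are shown for the 4 with the largest falls. Each of these genes was lower in MLN4924 than in DMSO at 24 h, and shared regulation was not tested. Of the 35 members, 24 had an entry. Each sequence is the 250 bases before the transcript start, written 5′ to 3′ on the gene's strand: ITGA6 at chr2:172427086-172427335 (plus strand), LAMB1 at chr7:108003162-108003411 (minus), ITGA10 at chr1:145910051-145910300 (minus) and ITGA1 at chr5:52787666-52787915 (plus). Capitals mark a match to a motif searched, CATTCC in ITGA10 (a TEAD match on the opposite strand, 91 bases before the start) and GCACTGTCA in ITGA1 (an antioxidant response element match on the opposite strand, 98 bases before the start).
ITGA6: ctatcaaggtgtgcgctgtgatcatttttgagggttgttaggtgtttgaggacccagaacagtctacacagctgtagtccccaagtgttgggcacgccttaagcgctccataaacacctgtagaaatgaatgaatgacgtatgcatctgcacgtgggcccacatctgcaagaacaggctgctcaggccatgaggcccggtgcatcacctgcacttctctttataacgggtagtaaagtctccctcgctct
LAMB1: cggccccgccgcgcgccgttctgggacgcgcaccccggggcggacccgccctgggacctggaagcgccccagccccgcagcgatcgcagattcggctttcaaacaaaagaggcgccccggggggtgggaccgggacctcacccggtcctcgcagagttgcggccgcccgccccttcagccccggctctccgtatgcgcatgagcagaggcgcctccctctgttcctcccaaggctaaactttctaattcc
ITGA10: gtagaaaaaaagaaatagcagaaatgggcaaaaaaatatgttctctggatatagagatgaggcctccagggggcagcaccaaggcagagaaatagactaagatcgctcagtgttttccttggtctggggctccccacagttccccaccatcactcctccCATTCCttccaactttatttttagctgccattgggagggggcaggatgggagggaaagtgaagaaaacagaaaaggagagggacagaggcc
ITGA1: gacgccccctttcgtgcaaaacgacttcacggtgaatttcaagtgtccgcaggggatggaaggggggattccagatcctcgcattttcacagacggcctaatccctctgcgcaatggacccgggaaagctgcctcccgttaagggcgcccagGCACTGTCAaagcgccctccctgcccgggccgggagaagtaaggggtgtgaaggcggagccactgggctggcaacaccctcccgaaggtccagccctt

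The motifs were AP-1 (TGANTCA), the antioxidant response element (TGACNNNGC) and TEAD (GGAATG), read on both strands, and no matches of different motifs overlapped in a member. AP-1 was found in 0 of 24 member windows and in 6.6% of the 27305 windows of the table. The antioxidant response element was found in 3 of 24 (ITGA1, ITGB1 and ITGB5), against 11.1% of all windows. TEAD was found in 4 of 24 (ITGA10, ITGA5, ITGB1 and LAMA2), against 12% of all windows. A match is a string of letters in this window and was not tested as a binding site.

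The 30 arrays had median signals of 32.6 to 44 as deposited. At 8 h the medians were 33.6 to 37.6 in MLN4924 arrays and 39.4 to 44 in DMSO arrays. Every MLN4924 array also had a lower median than every DMSO array at 1 h and at 24 h. Within a group the log signals of 2 arrays correlated at 0.987 to 0.9925, and no 2 arrays held identical values. The ratio of 3′ to 5′ signal of ACTB, a measure of RNA integrity, overlapped between MLN4924 and DMSO arrays at every time (1.263 to 1.331 in MLN4924 and 1.239 to 1.346 in DMSO at 24 h). The match was poorer at 2 h, with 1.246 to 1.362 in MLN4924 and 1.263 to 1.744 in DMSO. At 8 h the ratio was 1.279 to 1.43 in MLN4924 and 1.144 to 1.306 in DMSO. Of the lineage markers, SOX10, a transcription factor of melanocytes, averaged 396 ± 29.3 in MLN4924 and 873 ± 87.6 in DMSO at 24 h, and MITF averaged 350 ± 28.6 in MLN4924 and 365 ± 19.9 in DMSO (SD, n = 3 each). The pigment genes MLANA, PMEL and TYRP1 were below the median of all values (36.6) in both groups at 24 h, while TYR averaged 45.3 in MLN4924 and 46 in DMSO. In all 5 of 8 melanocyte markers had a group mean above that median at 24 h, as did 4 of 7 fibroblast, 3 of 5 blood and 2 of 6 epithelial markers. PTPRC of blood cells and EPCAM of epithelium were below it. The 3 markers of the melanocyte list of 8 measured that fell at 24 h were S100B, SOX10 and S100A1, and the list's summed signal was 1015.8 to 1098.9 in MLN4924 arrays and 2423.8 to 2701.9 in DMSO arrays. The fibroblast list fell in 4 of 7 (summed signal 268.2 to 309.3 in MLN4924 and 450.2 to 502.4 in DMSO), and the blood list in 1 of 5, LYZ (233 to 297.3 in MLN4924 and 551.8 to 613.9 in DMSO). Beside these counts stand 18.1% of all genes called lower at 24 h. These lists move in the same direction as most members that changed at 24 h, and their part in the members' changes was not tested. All cultures were of the same line, so the lists give transcript levels in A375 cells and not counts of other cell types. In whole-culture RNA, fewer cells expressing a gene and less of its RNA per cell cannot be told apart.

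Values below are quantile-normalized signals, and changes are on the scale of log2(signal + 32), which understates the change of dim genes. Each gene is represented by its brightest probe set, and it is called where limma's Benjamini-Hochberg adjusted p over all 19775 genes is under 0.05. "Rose" and "fell" describe MLN4924 relative to the DMSO arrays of the same time unless a comparison between times is named.

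No member was called at 1 h or 2 h by limma, at which 0.00506% and 0.556% of all genes were called. At an unadjusted p under 0.05, 1 member passed at 1 h and 5 at 2 h. The share of all genes at that cutoff was not counted, here or below, so counts at an unadjusted p have no background. At 4 h 1 member fell, ITGB8, where 3.4% of all genes were called (1.84% up and 1.57% down). At 8 h 8 members were called, 2 up and 6 down, where 15.2% of all genes were called (8.35% up and 6.83% down). At 24 h 19 members were called, 5 up and 14 down, where 34% of all genes were called (15.9% up and 18.1% down). The F test over all 5 times called 17 members and 32.6% of all genes. The members' median change was -0.12 at 24 h, beside 0 for all genes, and 0.02 at 8 h, beside 0. With the arrays centred on their median in place of quantile normalization, the 8 h calls were 3 up and 4 down, where 14.1% of all genes were called up and 4.08% down. On that scale 16 members were called at 24 h, 5 up and 11 down, where 18.2% of all genes were called up and 15.4% down.

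**Figure D1:**
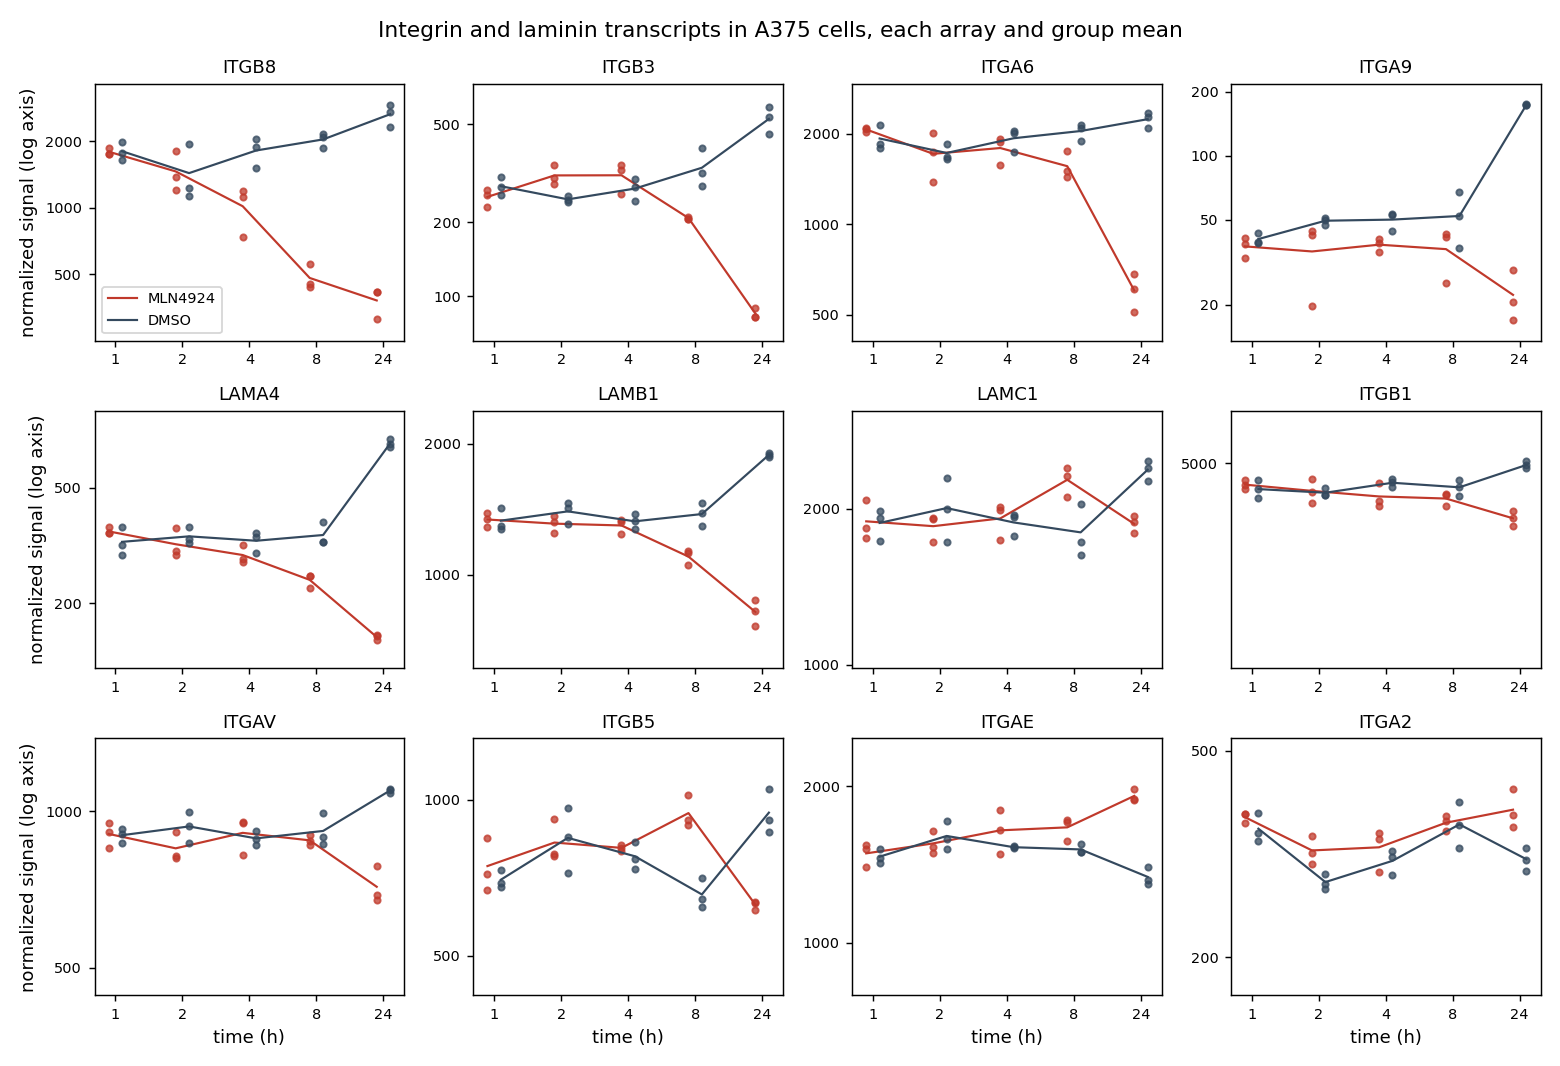
Normalized signal (log axis) of 12 member genes against time in hours, with times evenly spaced, in MLN4924 (red) and DMSO (dark blue). Points are arrays (3 per group) and lines join group means. All MLN4924 arrays of ITGB8 lie below the DMSO arrays from 4 h on, and those of ITGB3, ITGA6, LAMA4 and LAMB1 from 8 h on, while ITGB5 and LAMC1 are higher at 8 h and lower at 24 h.

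The largest falls at 24 h were those of ITGB8 and ITGB3, subunits of RGD-binding receptors. Other subunits of this class changed less at 24 h, such as ITGAV (-0.60) and ITGB1 (-0.34), and less than the laminin chain LAMA4 (-2.0). ITGB8, the beta subunit that pairs with alpha-v and activates latent TGF-beta, had 1193.0, 736.2 and 1117.9 in MLN4924 arrays at 4 h, against 2056.4, 1885.6 and 1511.7 in DMSO arrays. All 3 MLN4924 arrays lay below all 3 DMSO arrays. The 4 h change was -0.84 (SE 0.19, limma adjusted p = 0.00895), but it lost its call without DMSO array 1 (adjusted p = 0.0648) or MLN4924 array 2 (adjusted p = 0.093), and with only the 4 h arrays in the fit (adjusted p = 0.127). At 8 h ITGB8 had 448.5, 437.8 and 553.8 in MLN4924 and 2087.3, 1869.1 and 2166.5 in DMSO. At 24 h it had 413.4, 413.6 and 311.5 in MLN4924 and 2716.9, 2924.6 and 2326.4 in DMSO. The groups were far apart at both times, with changes of -2.02 (SE 0.19, limma adjusted p = 2.23e-08) and -2.71 (SE 0.19, limma adjusted p = 1.88e-11), and at 1 h and 2 h they overlapped.

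ITGB3, the beta subunit of the classic vitronectin receptor, was 309.9 ± 28.7 in MLN4924 and 247.6 ± 6.4 in DMSO at 2 h (SD, n = 3 each), a difference that was not called (limma adjusted p = 0.337). At 8 h it had 206.2, 206.6 and 210.5 in MLN4924 and 402.2, 280.0 and 316.8 in DMSO. By 24 h it had 82.2, 82.4 and 89.4 in MLN4924 and 455.5, 537.7 and 586.3 in DMSO. The arrays did not overlap at either time, and the change was -0.59 (SE 0.11, limma adjusted p = 0.000397) at 8 h and -2.25 (SE 0.11, limma adjusted p = 2.9e-14) at 24 h. ITGAV, the alpha-v subunit that pairs with ITGB3, ITGB5 and ITGB8, had 689.9, 783.3 and 673.6 in MLN4924 and 1098.7, 1086.3 and 1105.2 in DMSO at 24 h. Its arrays did not overlap, and its change of -0.60 (SE 0.07, limma adjusted p = 2.32e-07) stands beside -2.25 for ITGB3 and -2.71 for ITGB8.

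ITGB5, another partner of alpha-v, was higher in MLN4924 at 8 h and lower at 24 h. At 8 h it had 892.0, 1018.8 and 914.7 in MLN4924 and 620.1, 643.3 and 706.6 in DMSO, a change of 0.50 (SE 0.10, limma adjusted p = 0.000529). At 24 h it had 633.5, 634.2 and 613.5 in MLN4924 and 867.4, 914.3 and 1049.3 in DMSO, a change of -0.56 (SE 0.10, limma adjusted p = 3.47e-05). The groups stood apart at both times and in opposite directions. With probe sets that can bind several transcripts left out (names ending in _x_at or _s_at), the gene's remaining probe set gave 0.14 at 8 h (limma adjusted p = 0.47) and -0.17 at 24 h (limma adjusted p = 0.267), neither called.

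ITGA5, which with ITGB1 forms the fibronectin receptor, had 180.3, 147.8 and 160.0 in MLN4924 and 226.1, 243.9 and 182.9 in DMSO at 24 h. The arrays lay apart by a small margin, and the change was -0.35 (SE 0.13, limma adjusted p = 0.0407). That call was lost with only the 24 h arrays fitted (adjusted p = 0.0598), with median centring (adjusted p = 0.0535) and without DMSO array 1 or 2 or MLN4924 array 2 or 3 (adjusted p up to 0.175). ITGB1, a beta subunit shared by many integrins, had 3780.2, 3928.7 and 4035.7 in MLN4924 and 4950.1, 5039.7 and 4889.6 in DMSO at 24 h. These groups did not overlap, and the change of -0.34 (SE 0.05, limma adjusted p = 1.2e-05) was -0.14 and not called with median centring (adjusted p = 0.203). ITGA8, an RGD-binding subunit known from kidney development, stayed below the median of all values in every group.

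Among laminin receptors, ITGA6, which pairs with ITGB1 or ITGB4, fell late and steeply. It had 1500.0, 1431.4 and 1749.6 in MLN4924 and 1893.0, 2087.3 and 2145.2 in DMSO at 8 h, a change of -0.38 (SE 0.12, limma adjusted p = 0.0258). At 24 h it had 611.3, 683.8 and 512.9 in MLN4924 and 2266.6, 2347.5 and 2092.0 in DMSO, a change of -1.84 (SE 0.12, limma adjusted p = 4.11e-12). The arrays were apart at both times, but the 8 h call was lost with median centring (-0.17, adjusted p = 0.354), with signals as deposited (adjusted p = 0.0933), with only the 8 h arrays fitted (adjusted p = 0.0721) and without any of 4 arrays (DMSO arrays 2 and 3 and MLN4924 arrays 1 and 2). ITGA3, the other main laminin-binding alpha subunit outside muscle, averaged 134.9 ± 32 in MLN4924 and 135.5 ± 27.7 in DMSO at 24 h (SD, n = 3 each) and was not called at any time. ITGA7, the muscle laminin receptor, and ITGB4, the hemidesmosome subunit, were below the median of all values in every group.

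Collagen receptors moved in both directions. ITGA1 had 183.6, 193.0 and 198.7 in MLN4924 and 335.0, 294.5 and 342.9 in DMSO at 24 h, a change of -0.67 (SE 0.08, limma adjusted p = 1.78e-07). ITGA10, described mainly in cartilage, had 54.4, 64.3 and 67.1 in MLN4924 and 133.7, 132.5 and 119.8 in DMSO, a change of -0.78 (SE 0.12, limma adjusted p = 1.42e-05). For both genes the MLN4924 arrays lay wholly below the DMSO arrays. ITGA2 had 422.3, 375.9 and 356.3 in MLN4924 and 308.1, 325.0 and 293.6 in DMSO, an increase of 0.29 (SE 0.08, limma adjusted p = 0.00392) without overlap. ITGA11, a fibroblast collagen receptor, was below the median of all values in every group.

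The 2 related subunits ITGA4 and ITGA9, which bind fibronectin or VCAM1 and tenascin or osteopontin among other ligands, both fell at 24 h. ITGA9 had 20.6, 29.1 and 16.9 in MLN4924 and 172.1, 173.6 and 174.4 in DMSO, a change of -1.93 (SE 0.13, limma adjusted p = 1.31e-11). Its DMSO arrays at 1, 2, 4 and 8 h averaged 40.6, 49.5, 50.1 and 52.1, so the 24 h DMSO arrays stood far above every earlier group. ITGA4 had 185.5, 183.6 and 183.3 in MLN4924 and 298.2, 289.0 and 283.3 in DMSO, a change of -0.58 (SE 0.10, limma adjusted p = 8.32e-05). Neither gene was called at an earlier time.

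Of the leukocyte subunits, 2 rose at 24 h. ITGAE, which pairs with ITGB7 on mucosal T cells and binds E-cadherin, had 1887.1, 1884.6 and 1979.5 in MLN4924 and 1399.0, 1318.4 and 1299.9 in DMSO, a change of 0.51 (SE 0.07, limma adjusted p = 7.86e-07). Its partner ITGB7 was below the median of all values in every group, with group means of 4.7 to 11.4. ITGB2, the shared beta subunit of leukocyte integrins, had 50.8, 47.5 and 36.2 in MLN4924 and 13.7, 21.4 and 18.7 in DMSO, a change of 0.62 (SE 0.17, limma adjusted p = 0.00489). Both genes' arrays were apart, but the ITGB2 signals lie near the median of all values and the call was lost with 1 in place of 32 added to the signal (adjusted p = 0.0611). The alpha partners of ITGB2 were not called: ITGAD, ITGAL and ITGAX were below the median in every group, and ITGAM had group means of 44.3 to 57.5. PTPRC, the general leukocyte marker, averaged 8.9 ± 6.5 in MLN4924 and 14.5 ± 11.7 in DMSO at 24 h (SD, n = 3 each), both below the median. Of the 5 blood markers measured, 3 had a group mean above the median at 24 h. Only LYZ was called, lower in MLN4924, where 18.1% of all genes were called lower.

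ITGA2B, the platelet fibrinogen receptor subunit, was called at 8 h and at no other time. It had 16.1, 8.8 and 22.8 in MLN4924 and 91.9, 67.7 and 43.3 in DMSO, a change of -1.04 (SE 0.27, limma adjusted p = 0.0095). The arrays did not overlap, but the call was lost without DMSO array 1 (adjusted p = 0.0636) or MLN4924 array 2 (adjusted p = 0.0501), and the other 3 of its 4 probe sets had mean signals of 1.8 to 5.9. None of the 4 platelet markers was called at 8 h or at 24 h by limma or passed an unadjusted p under 0.05. Limma called 15.2% of all genes at 8 h and 34% at 24 h. The platelet markers' summed signal at 8 h was 105.7 to 187.8 in MLN4924 arrays and 128.6 to 143.8 in DMSO arrays.

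**Figure D2:**
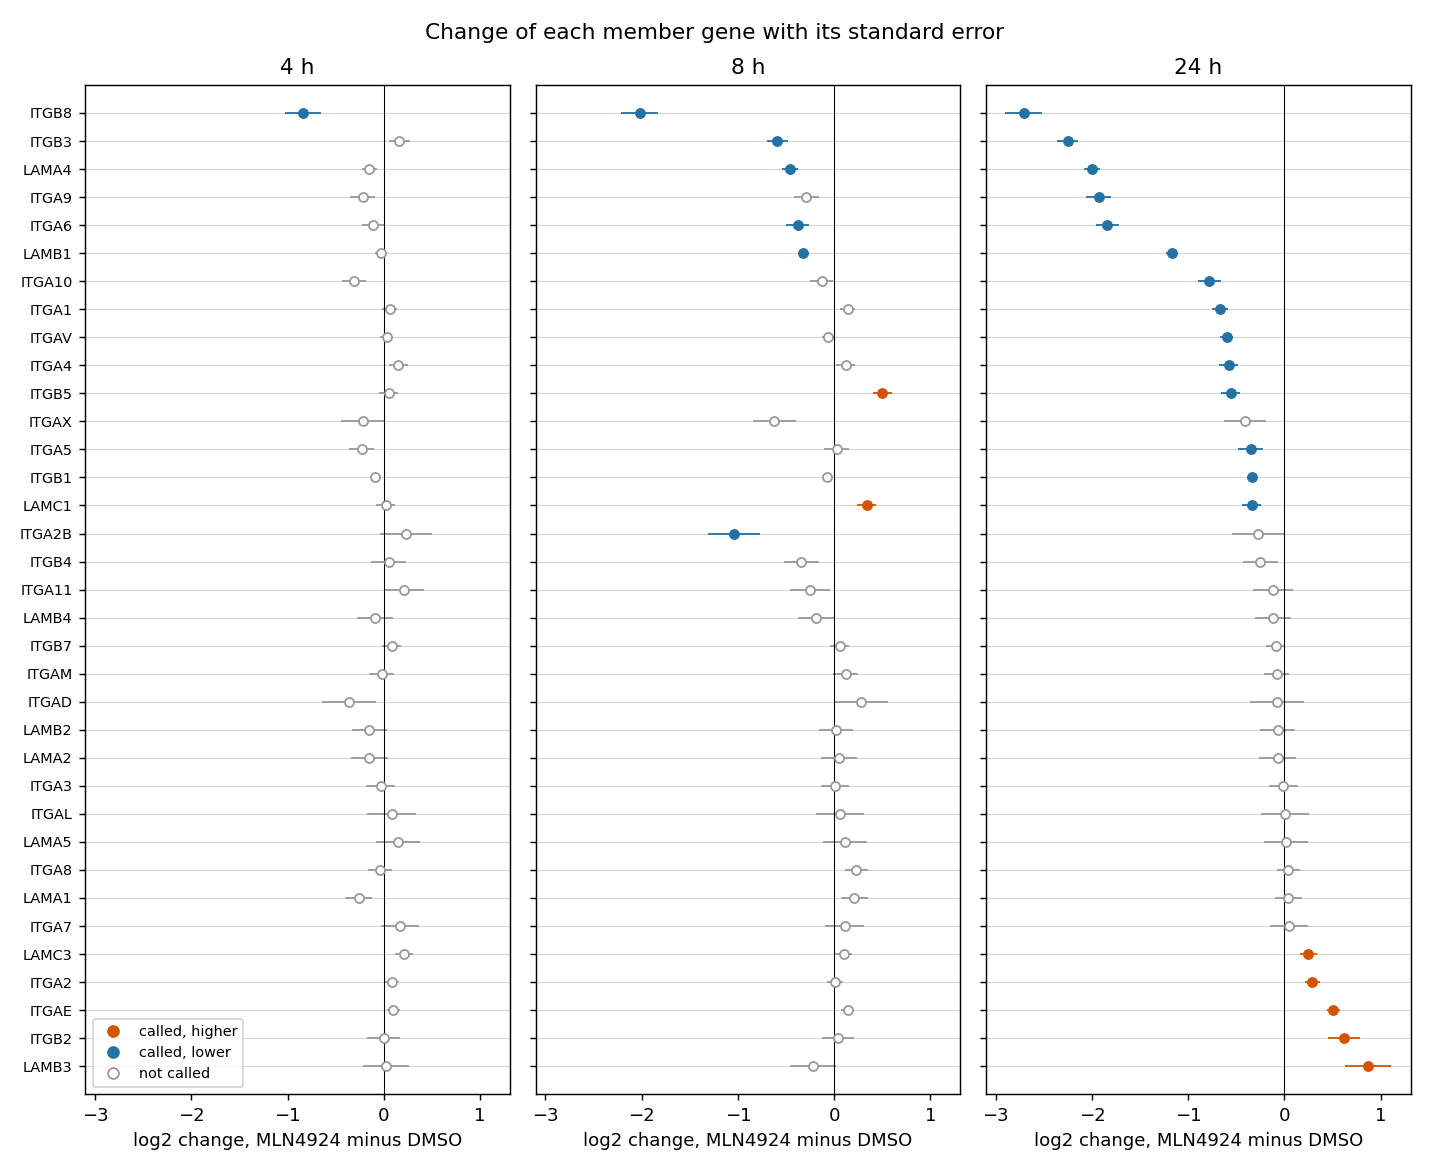
Change of each of the 35 member genes (rows), MLN4924 minus DMSO on the log2(signal + 32) scale, at 4, 8 and 24 h, with its standard error. Filled points are called and open grey points are not: 1 lower at 4 h, 6 lower and 2 higher at 8 h, 14 lower and 5 higher at 24 h.

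Among laminin chains, LAMA4, the alpha chain of mesenchymal and vascular basement membranes, fell most. It had 248.2, 225.4 and 249.1 in MLN4924 and 326.4, 380.2 and 324.4 in DMSO at 8 h, a change of -0.46 (SE 0.08, limma adjusted p = 0.000358). At 24 h it had 155.7, 154.4 and 149.7 in MLN4924 and 707.4, 734.5 and 688.1 in DMSO, a change of -2.0 (SE 0.08, limma adjusted p = 1.95e-15). The groups were separate at both times and the DMSO arrays of 24 h lay above all other groups.

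LAMB1, the widely expressed beta chain, had 1118.1, 1050.8 and 1130.4 in MLN4924 and 1384.0, 1457.8 and 1290.4 in DMSO at 8 h, a change of -0.32 (SE 0.06, limma adjusted p = 0.00103). Its 24 h arrays had 824.8, 873.1 and 762.2 in MLN4924 and 1882.6, 1900.8 and 1867.0 in DMSO, a change of -1.17 (SE 0.06, limma adjusted p = 2.69e-13). Its arrays were apart at both times. The 8 h call was lost with median centring (-0.12, adjusted p = 0.276) and with only the 8 h arrays fitted (adjusted p = 0.0623).

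LAMC1, the gamma chain of most laminins, changed direction in the way ITGB5 did. At 8 h it had 2399.3, 2102.5 and 2315.2 in MLN4924 and 2045.2, 1631.7 and 1723.0 in DMSO, a change of 0.34 (SE 0.10, limma adjusted p = 0.0171). LAMC1 at 24 h had 1793.3, 1881.0 and 1931.6 in MLN4924 and 2399.3, 2465.9 and 2262.2 in DMSO, a change of -0.34 (SE 0.10, limma adjusted p = 0.00647). The groups did not overlap at either time, by a narrow margin at 8 h. The 8 h call was lost without DMSO array 2 or 3 or MLN4924 array 1 or 3 (adjusted p of 0.0563 to 0.1), with the mean of its probe sets (adjusted p = 0.28) and with only the 8 h arrays fitted (adjusted p = 0.12). The 24 h call was lost with median centring (-0.22, adjusted p = 0.141).

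LAMB3, a chain of the epithelial laminin that anchors keratinocytes, had 74.9, 56.7 and 79.0 in MLN4924 and 10.8, 39.4 and 23.9 in DMSO at 24 h, a change of 0.87 (SE 0.24, limma adjusted p = 0.00581). The epithelial marker list fell in 1 of 6, KRT14, beside 18.1% of all genes called lower at 24 h. Its summed signal was 111.8 to 142.9 in MLN4924 arrays and 157.8 to 170.9 in DMSO arrays. LAMC3, another gamma chain, had 59.2, 70.2 and 70.6 in MLN4924 and 48.1, 56.6 and 47.7 in DMSO, a change of 0.25 (SE 0.09, limma adjusted p = 0.0351). Both sets of arrays were apart, but both signals are close to the median of all values. The LAMB3 change was 0.69 without DMSO array 1 (adjusted p = 0.0504). The LAMC3 call was lost under 8 of the alternatives, among them the signals as deposited (0.17, adjusted p = 0.239) and leaving out DMSO array 1 or 3 or MLN4924 array 2 or 3 (adjusted p of 0.108 to 0.116).

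The remaining laminin chains were not called at any time. LAMA5, the alpha chain of many adult basement membranes, averaged 164.1 ± 65.7 in MLN4924 and 153.4 ± 16.9 in DMSO at 24 h, and LAMB2 averaged 85.6 ± 5.6 in MLN4924 and 92.1 ± 14.1 in DMSO (SD, n = 3 each). LAMA2, the muscle chain, had group means of 26.9 to 39.9, around the median of all values. LAMA1 and LAMB4 stayed below the median in every group.

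In all, 10 members had every group mean below the median of all values (ITGA7, ITGA8, ITGA11, ITGAD, ITGAL, ITGAX, ITGB4, ITGB7, LAMA1 and LAMB4), and 0 of these were called at 24 h by limma or passed an unadjusted p under 0.05. The 24 h groups took part in this filter, so a dim member that rose past the median at 24 h was left out beforehand. ITGB2 left the set only through its MLN4924 mean of 44.8 at 24 h, beside 17.9 in DMSO. The count of 0 is therefore not a result about dim genes. The arrays of the groups did not overlap for 20 of 35 members at 24 h, where this held for 44.6% of all genes, and for 14 members at 8 h, where it held for 28%.

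The size of the effect was next compared between times. From 2 h to 4 h no member's effect changed by limma's adjusted p, where 0.48% of all genes did, and ITGB8 alone passed an unadjusted p under 0.05 (-0.88, SE 0.26, limma adjusted p = 0.188). From 4 h to 8 h the effect moved down in 2 members, ITGB8 by -1.18 (SE 0.26, limma adjusted p = 0.02) and ITGB3 by -0.75 (SE 0.16, limma adjusted p = 0.0111), where 1.54% of all genes were called (0.753% up and 0.784% down). With only the 4 h and 8 h arrays fitted, neither was called. From 8 h to 24 h it moved in 14 members, 12 down and 2 up, where 19.5% of all genes were called (8.23% up and 11.3% down). The largest of these shifts were those of ITGB3 (-1.66, SE 0.16), ITGA9 (-1.64, SE 0.18), LAMA4 (-1.54, SE 0.12) and ITGA6 (-1.46, SE 0.17). ITGB8, which had the largest fall at 24 h, was not among the 14. Its effect moved by -0.69 (SE 0.26, limma adjusted p = 0.0718) and passed an unadjusted p under 0.05.

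Each agent's arrays at 24 h were also compared with its own arrays at 1 h. This shows what part of a difference lay in the treated and what part in the vehicle cultures, apart from any difference at 1 h. The comparison within MLN4924 was added after the data were seen. Within MLN4924 13 members were called, 3 up and 10 down, where 29.8% of all genes were called (14.3% up and 15.5% down). Within DMSO 10 members rose and 0 fell by limma, where 18.4% of all genes were called (9.93% up and 8.49% down). At an unadjusted p under 0.05, 13 rose and 2 fell within DMSO, with no share of all genes at that cutoff to set beside them. Of the 14 members lower in MLN4924 than in DMSO at 24 h, 7 fell over time in MLN4924 and rose over time in DMSO: ITGA9, ITGAV, ITGB1, ITGB3, ITGB8, LAMA4 and LAMB1. The 14 were called from the same 24 h arrays, which favours this pattern. The share of all genes called lower at 24 h that show it was not counted.

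For ITGB8 the larger part lay in the treated arrays, with -2.16 (SE 0.19) within MLN4924 and 0.55 (SE 0.19) within DMSO. For LAMA4 the parts were -1.06 (SE 0.08) within MLN4924 and 1.06 (SE 0.08) within DMSO. For ITGA9 the larger part lay in the vehicle arrays, with -0.36 (SE 0.13) within MLN4924 and 1.50 (SE 0.13) within DMSO. ITGA4, ITGA6 and ITGA10 were called in MLN4924 alone, where ITGA6 fell by 1.73 on the log2 scale (SE 0.12). ITGA1, ITGB5 and LAMC1 were called in DMSO alone, all 3 rising over time. ITGA5 was called in neither. Of the 5 members that were higher in MLN4924 at 24 h, ITGAE, ITGB2 and LAMC3 rose over time in MLN4924, and ITGA2 and LAMB3 were called in neither agent. LAMC3 rose from a lower start, with 47.7 in MLN4924 and 65.4 in DMSO at 1 h. Those arrays did not overlap, but the difference was not called (-0.29, SE 0.09, limma adjusted p = 0.717). A call in only 1 agent is not itself a test of the difference between agents, which is given by the 24 h comparison.

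**Figure D3:**
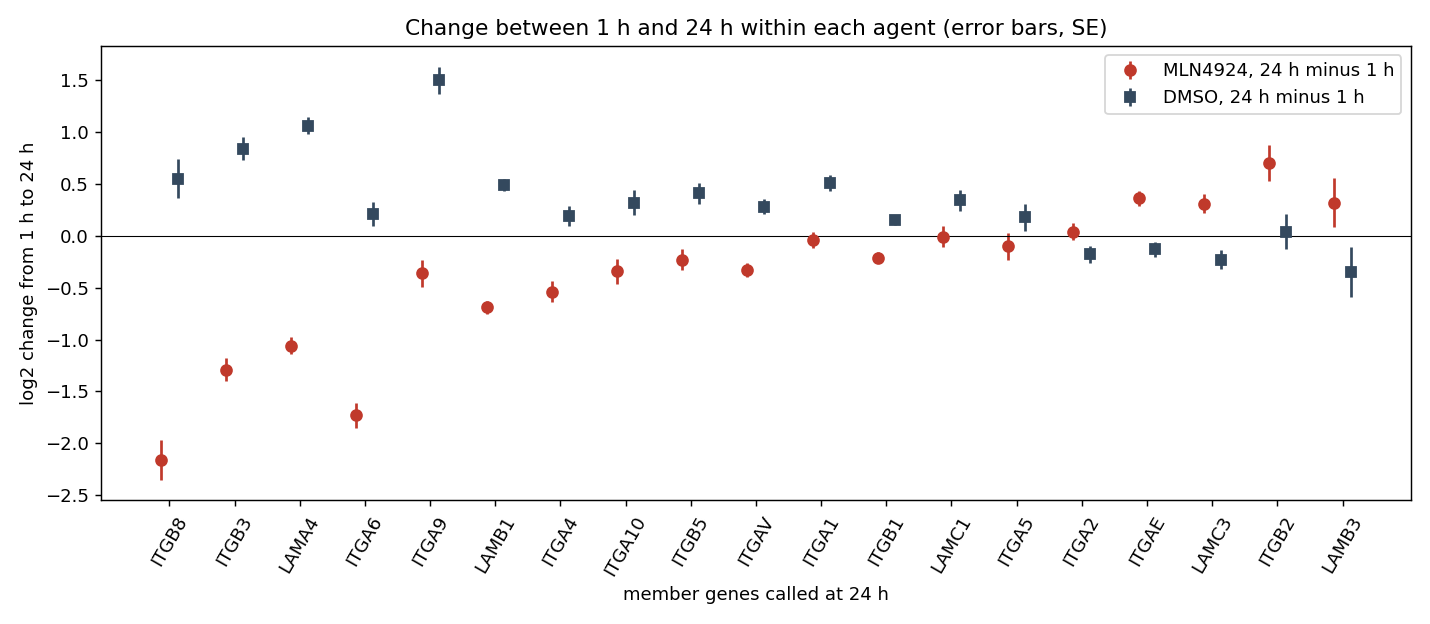
Change between 1 h and 24 h (log2 scale, with SE) within MLN4924 (red circles) and within DMSO (dark squares) for the 19 members called at 24 h. ITGB8 has a large fall in MLN4924, ITGA9 a large rise in DMSO, and LAMA4 changes of equal size in both.

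Probe sets of the same gene were compared next. Of the 95 probe sets, 18 were called at 8 h and 42 at 24 h, where 9.74% and 24.8% of all 54675 probe sets were called (limma, adjusted over all probe sets). At 24 h 34 were lower and 8 higher, and 47 of the 95 had a mean below the median of all values. ITGB8 fell in 4 of 5 probe sets, ITGB3 in 5 of 7, LAMA4 in 3 of 5, ITGA9 in 2 of 4, ITGA1 in 3 of 3 and ITGA4 in 3 of 4. ITGA6, LAMB1 and LAMC1 fell in both of their probe sets and ITGA2 rose in both. ITGB2 rose in 2 of 3, all with a mean below the median, and LAMC3 in 1 of 2. ITGA10, ITGAE, ITGAV and LAMB3 have 1 probe set each, so no other probe set could be compared. ITGB5 fell in 2 of 4 at 24 h, and at 8 h it was called in 1 of 4, with changes of -0.02 to 0.50. LAMC1 at 8 h read 0.34 in its brightest probe set and -0.05 in the other (limma adjusted p = 0.836). At 24 h ITGB1 fell in 3 of 7 and the other 4 had mean signals of 4.1 to 24.8. ITGA5's only probe set missed the threshold when adjusted over all probe sets (-0.35, limma adjusted p = 0.0541).

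A few probe sets gave calls that the gene's brightest probe set did not. For ITGB1 at 8 h, 2 probe sets were called with -0.39 (limma adjusted p = 0.0386) and -0.47 (limma adjusted p = 0.0112), and the brightest gave -0.07 (limma adjusted p = 0.531). A dim ITGB4 probe set averaged 6.7 in MLN4924 and 31.9 in DMSO at 24 h (limma adjusted p = 0.00236), and a dim ITGAM probe set averaged 19.8 in MLN4924 and 6.6 in DMSO (limma adjusted p = 0.03). All 4 of these group means lie below the median of all values.

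**Figure D4:**
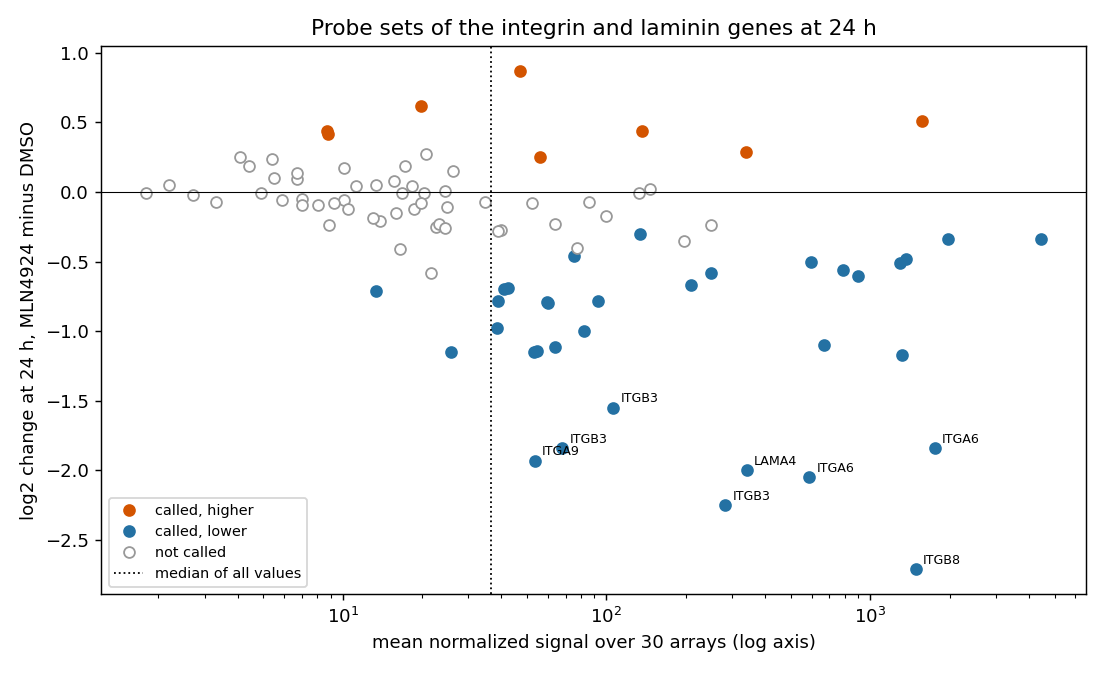
Change at 24 h (log2(signal + 32) scale, MLN4924 minus DMSO) of the 95 member probe sets against their mean normalized signal over 30 arrays (log axis). Filled points are called, and the dotted line is the median of all values, 36.6. Most of the 42 called probe sets lie to its right, and the ITGB8, ITGB3, ITGA6, LAMA4 and ITGA9 probe sets with the largest falls are named.

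The other genes of the pathway were taken from 5 lists drawn up from general knowledge, and their counts at 24 h stand beside 15.9% of all genes called up and 18.1% called down. Of the basement membrane partners of laminin 5 of 19 fell at 24 h and 0 rose by limma (7 and 0 at an unadjusted p under 0.05), with a median of -0.09. NID1, the nidogen that binds laminin gamma chains, averaged 374.4 ± 22.5 in MLN4924 and 1609 ± 156.9 in DMSO (SD, n = 3 each), a change of -2.01 (SE 0.15, limma adjusted p = 1.1e-10). SPARC changed by -1.07 (SE 0.06), and the type IV collagen chains COL4A1 and COL4A2 by -0.99 (SE 0.10) and -0.81 (SE 0.12). The list's summed signal was 5456.6 to 5566.9 in MLN4924 arrays and 10271.1 to 11594 in DMSO arrays at 24 h. At 8 h 1 of the 19 was called, COL4A1, where 15.2% of all genes were called. COL4A1 was higher in MLN4924 (0.36, SE 0.10, limma adjusted p = 0.0152).

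Of the other integrin ligands of the matrix and cell surface, 6 of 27 rose and 6 fell at 24 h, with a median of -0.02. The matricellular proteins CCN2 and CCN1 rose most: CCN2 averaged 2931.3 ± 198.8 in MLN4924 and 345.1 ± 12.2 in DMSO, and CCN1 averaged 4110.4 ± 372.0 in MLN4924 and 562.9 ± 38.7 in DMSO (SD, n = 3 each). Their changes were 2.97 (SE 0.10, limma adjusted p = 4.1e-17) and 2.80 (SE 0.12, limma adjusted p = 1.75e-15). TNC, tenascin-C, a ligand of ITGA9, fell most, with 512.3 ± 16.8 in MLN4924 and 3727.1 ± 199.0 in DMSO, a change of -2.79 (SE 0.11, limma adjusted p = 6.44e-16).

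Of the proteins that bind integrin tails or link them to actin, 3 of 35 rose and 11 fell at 24 h, with a median of -0.04. TNS3, a tensin that binds beta tails, changed by -1.53 (SE 0.08), KANK1, which binds talin, by -1.25 (SE 0.10), and NEDD9, an adaptor in FAK signalling, by -1.13 (SE 0.09). FERMT1, a kindlin, was higher at 24 h (0.80, SE 0.12, limma adjusted p = 4.79e-06). TLN1, the main talin, averaged 79.1 ± 17.8 in MLN4924 and 74.2 ± 14 in DMSO at 24 h (SD, n = 3 each) and was not called. Of tetraspanins and other side partners, 3 of 14 rose and 6 fell, with a median of -0.09. SLC3A2, the CD98 heavy chain that binds beta tails, changed by 1.84 (SE 0.07), and the tetraspanins CD9 and CD63 by -1.56 (SE 0.07) and -1.13 (SE 0.06). Of 7 other laminin receptors and dystroglycan enzymes measured, 2 rose and 1 fell, with a median of 0.09: SDC4 changed by 1.30 (SE 0.07), SDC1 by 0.37 (SE 0.11) and SDC2 by -1.59 (SE 0.14).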

How the data were processed

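Biotin-labelled cRNA of the 30 samples was read on Affymetrix HG-U133 Plus 2.0 arrays. The deposited table holds linear probe set intensities for 54675 probe sets, and Affymetrix Expression Console is the tool in the submitters' processing notes (version and settings not given in the sources). Values ran from 0 to 18206.6, and the mean trimmed by 2% was 150.02 on every array, so the deposited intensities had been scaled by the authors. From them, signals were quantile-normalized and transformed as log2(signal + 32). The file's probe sets had 1 symbol in 41097 cases, several in 1801 and none in 11777, and each gene kept its brightest probe set with 1 symbol, with no filter on dim genes.

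Limma 3.58.1 in R 4.3.3 fitted 10 group means over 30 arrays (20 residual degrees of freedom, prior 3.03). Tests are two-sided with Benjamini-Hochberg adjustment within each contrast, called under 0.05. The number of arrays, 3 per group, limits the precision. Groups came from the labels' titles.

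Members, lists, motifs and the rule for the genes named (every member, and up to 4 called members per list with the largest change, with FERMT1, TLN1 and the markers named outside it) were chosen with earlier results of these data known. Coordinates are those of RefSeq for GRCh38.p14. Alternatives were median centring, signals as deposited, 1 or 64 in place of 32, dim genes left out, averaging the probe sets of each gene, no _x_at or _s_at probe sets, a trended robust prior, the replicate number as a block, only the arrays compared, and leaving out each array.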

Additional observations from a re-analysis of the deposited data

Results flagged for a closer look

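The effect of MLN4924 against DMSO differed between consecutive times, by limma's test of the difference itself, in 16 cases among the integrin and laminin genes. Between 4 h and 8 h the log2 effect moved by -1.18 for ITGB8, which was already lower in MLN4924 at 4 h, and by -0.75 for ITGB3, whose effect was 0.16 at 4 h (not called) and -0.59 at 8 h. This step was called for 1.54% of all genes, and with only the 4 h and 8 h arrays fitted neither member was called. The step between 8 h and 24 h was called for 19.5% of all genes. Between 8 h and 24 h it moved downwards for 8 integrin subunits besides ITGB5: ITGB3 by -1.66, ITGA9 by -1.64, ITGA6 by -1.46, ITGA1 by -0.80, ITGA4 by -0.70, ITGA10 by -0.65, ITGAV by -0.54 and ITGB1 by -0.27. The same step was -1.54 for LAMA4, -0.86 for LAMB1 and -0.68 for LAMC1. ITGB5 moved by -1.06, which with LAMC1 made a called effect in MLN4924 that was positive at 8 h and negative at 24 h. ITGAE moved upwards by 0.37 and LAMB3 by 1.09.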

How the results depend on the processing

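Of 447 repeats of 28 named changes under other settings, 407 stayed on the same side of the threshold, 40 lost their call and 0 reversed, and 15 changes kept their call in all. Leaving out 1 array of the groups compared gave 0 to 1 called members at 4 h, 6 to 7 at 8 h, 16 to 19 at 24 h, 0 to 1 for the change of effect between 2 h and 4 h, 1 to 2 between 4 h and 8 h, 13 to 15 between 8 h and 24 h, 8 to 10 within DMSO, 11 to 13 within MLN4924, 15 to 18 for the F test, and 11 to 16 probe sets at 8 h and 37 to 42 at 24 h. With only the arrays compared in the fit, 0 members were called at 4 h, 0 for the change between 4 h and 8 h and 10 probe sets at 8 h. Such a fit has fewer arrays to estimate the spread and uses the spread of those groups alone. The reason for the lost calls was not tested. Except for median centring, the shares of all genes or probe sets called in the repeats are not given here. Member and probe set counts from the other repeats, above and below, therefore have no background. Without _x_at and _s_at probe sets 1 member was called for the change between 4 h and 8 h, with ITGB3 then read from another probe set. With median centring the calls over all genes at 8 h were 2796 up and 807 down, against 1652 up and 1350 down, and at 4 h 446 up and 212 down, against 363 up and 310 down, and at 24 h 3593 up and 3054 down, against 3142 up and 3581 down. The median of all genes moved by at most 0.08. With the replicate number as a block, 19 members were called at 24 h, 8 at 8 h and 1 at 4 h, and the block ended no call of a named change. Deviations of same-numbered arrays from their group means correlated at -0.11 to 0.07 over 15 pairs, so the numbers were not taken as pairs. Genes near the median signal have their changes compressed by the added 32, and 3 arrays per group limit what could be called.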

Other observations

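Some pathway genes were also called at earlier times. PTK2, the focal adhesion kinase, averaged 600.6 in MLN4924 and 475.1 in DMSO at 8 h (0.31, SE 0.10, limma adjusted p = 0.034) and 340.1 in MLN4924 and 681.6 in DMSO at 24 h (-0.94, SE 0.10, limma adjusted p = 3.74e-08). SRC averaged 109.4 in MLN4924 and 210.4 in DMSO at 2 h (-0.79, SE 0.19, limma adjusted p = 0.0495), and 212.1 in MLN4924 and 109.2 in DMSO at 8 h (0.79, SE 0.19, limma adjusted p = 0.0039). At 1, 4 and 24 h it was not called. The 2 h adjusted p lies just under the threshold, and SRC was not among the changes repeated under other settings. At 2 h the ACTB 3′ to 5′ ratio was also less well matched (1.246 to 1.362 in MLN4924 and 1.263 to 1.744 in DMSO). The part of RNA integrity in the SRC difference was not tested. SPP1, osteopontin, an integrin ligand, averaged 538.2 in MLN4924 and 207.5 in DMSO at 8 h and 482.8 in MLN4924 and 303.8 in DMSO at 24 h, with changes of 1.26 (SE 0.09) and 0.61 (SE 0.09). These genes were chosen after their values were seen.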
